A study of Mus musculus with 1920 samples.

Results

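Genes of the Wnt receptor complex and of the pathway that sets its abundance were followed in single Lgr5high intestinal stem cells (ISCs) of young and aged mice: the R-spondin receptors Lgr4 and Lgr5, the membrane ubiquitin ligases Rnf43 and Znrf3, the Wnt receptors Fzd5 and Fzd7, and the Wnt co-receptors Lrp5 and Lrp6. They were chosen by name, with earlier results of these data known, and are 8 of the 55471 gene identifiers in the deposited count table. All 8 passed the filter on low counts, which kept 20957 genes. Single cells were sorted from 3 young and 4 aged mice and sequenced one by one by a full-length method of the Smart-seq2 type, with 960 cells of either age. All mice were of the strain B6.129P2-Lgr5tm1(cre/ERT2)Cle/J, in which GFP and a tamoxifen-inducible Cre are expressed from the Lgr5 locus and the targeted Lgr5 allele is disrupted. No treatment is given for these mice, and their age in weeks is not given in the sources used here. Since cells were sorted for high Lgr5-driven GFP, the level of Lgr5 was part of the gate, while the other 7 genes were not used in the sort.

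In the crypt, Wnt ligands bind a Frizzled receptor together with Lrp5 or Lrp6, which stabilizes beta-catenin and keeps stem cells in place. RNF43 and ZNRF3 ubiquitinate Frizzled receptors and send them to degradation, and both genes are themselves Wnt targets, so that they act as negative feedback. R-spondins bridge LGR4 or LGR5 to the ligases and clear these from the membrane, which raises the number of Wnt receptors on the cell. Lgr5 marks the cycling stem cells of the crypt base, Lgr4 is transcribed in a wider range of crypt cells, and FZD7 and FZD5 are known as Wnt receptors of the intestinal epithelium.

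A minimum of 1000 detected genes per cell left 1836 cells, 160 to 376 per mouse. Their summed reads ranged from 49447464 to 134408884 per mouse, and the median cell of a mouse had between 211789.5 and 344567.5 reads. The method has no molecular identifiers, so that reads are not independent molecules and intervals from reads cover counting error only. ISC markers other than Lgr5 led in 1558 of the 1836 cells, by a comparison of 9 marker lists, and markers of Paneth cells led in 144, of enterocytes in 77, of goblet cells in 37 and of tuft cells in 14. In the 4 aged mice 20.9% ± 6.73 (SD) of cells were led by another list than that of ISCs, against 9.20% ± 3.41 (SD) in the 3 young mice (exact two-sided permutation test, p = 0.0857). From here on errors are SD over 4 aged or 3 young mice unless another is given. A code at the end of each cell name is shared by 384 cells at a time, and 3 of these 5 sets of cells hold both an aged and a young mouse. The mice are the replicates in each comparison, except where these sets of cells are compared, and 35 divisions of 7 mice allow no exact p below 0.0286. Beside counts of genes the corresponding share among all 20957 genes is given where it was computed.

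The 8 genes lie on 6 chromosomes of the GRCm38 build. Lgr4 (ENSMUSG00000050199) spans chr2:109917647-110014257 on the plus strand and Lgr5 (ENSMUSG00000020140) chr10:115450311-115587780 on the minus strand. Both ligase genes are on chromosome 11, Rnf43 (ENSMUSG00000034177) at chr11:87662722-87735539 on the plus and Znrf3 (ENSMUSG00000041961) at chr11:5276324-5444847 on the minus strand. Both Frizzled genes are on chromosome 1, Fzd5 (ENSMUSG00000045005) at chr1:64730558-64737751 on the minus and Fzd7 (ENSMUSG00000041075) at chr1:59482424-59486955 on the plus strand. Lrp5 (ENSMUSG00000024913) is at chr19:3584828-3686564 and Lrp6 (ENSMUSG00000030201) at chr6:134446476-134566965, both on the minus strand. Of the exons of Fzd5, 1233 bases overlap the antisense gene Gm38058, which holds 10773 reads next to 29247 of Fzd5. The strand setting of the counting is not given in the sources used here, so that reads of this pair may not be fully told apart.

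The promoters of the Frizzled pair are shown since Fzd5 and Fzd7 are receptors of one family whose proportion is compared between ages further on. Each sequence holds the 250 bases before the start of the gene in RefSeq on GRCm38.p6, 5′ to 3′ on the strand of the gene, with each CG dinucleotide in capitals.
Fzd5, chr1:64737751-64738000, minus strand: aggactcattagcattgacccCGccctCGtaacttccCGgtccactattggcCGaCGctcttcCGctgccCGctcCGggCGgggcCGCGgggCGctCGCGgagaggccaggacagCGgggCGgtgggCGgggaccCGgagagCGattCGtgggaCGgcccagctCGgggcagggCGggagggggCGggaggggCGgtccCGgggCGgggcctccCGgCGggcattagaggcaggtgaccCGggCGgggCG
Fzd7, chr1:59481897-59482146, plus strand: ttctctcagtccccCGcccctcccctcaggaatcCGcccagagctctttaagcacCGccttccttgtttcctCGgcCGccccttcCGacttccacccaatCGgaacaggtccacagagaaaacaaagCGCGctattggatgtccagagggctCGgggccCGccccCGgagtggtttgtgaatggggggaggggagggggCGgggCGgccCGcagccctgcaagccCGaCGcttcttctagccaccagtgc
The window of Fzd5 holds 32 CG dinucleotides, and 4.58% of the 32851 RefSeq windows of this length hold as many or more. That of Fzd7 holds 17, a number reached by 23.5% of windows, and the median window holds 6. Of the 8 genes, 4 were matched to such a window, with 5 windows in all, and the window of Lgr4 at chr2:109917397-109917646 holds 10 CG dinucleotides. The letters CTTTGAT, which Tcf/Lef factors bind, were searched on both strands and were found in 0 of these 5 windows and in 3.21% of all windows. Their core CTTTG, which is contained in the longer motif, was found in the window of Fzd7 alone among the 5 and in 48.6% of all windows.

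The genes differed in level by more than a factor of 10. Scaled to the length of the longest coding transcript and to depth (RPKM), Lgr5 reached 72.8 ± 20.0 (SD, n = 7 mice) and Rnf43 70.0 ± 17.0, followed by Znrf3 at 28.2 ± 14.3, Lgr4 at 23.4 ± 6.35 and Lrp5 at 14.5 ± 2.99. Lrp6 was at 6.74 ± 0.986, Fzd5 at 6.59 ± 1.37 and Fzd7 at 4.08 ± 1.04 RPKM. In these means the receptor-side partners of R-spondin and the ligases were thus the highest and Fzd7 the lowest, while Fzd5 was close to Lrp6. Neighbours in this order were compared within mice with an exact sign-flip permutation test, whose smallest p over 7 mice is 0.0156. Lrp5 exceeded Lrp6 and Fzd5 exceeded Fzd7 in 7 of 7 mice (exact p = 0.0156 for either), and Rnf43 exceeded Znrf3 in 6 of 7 (exact p = 0.0312). Lgr4 exceeded Lrp5 in 6 of 7 mice (exact p = 0.0469). After Benjamini-Hochberg adjustment over the compared pairs none of these exact p was under 0.05. The adjusted p was 0.0547 for Lrp5 with Lrp6 and for Fzd5 with Fzd7, 0.0729 for Rnf43 with Znrf3 and 0.0820 for Lgr4 with Lrp5. The order was taken from the same values. The pairs Lgr5 and Rnf43 (exact p = 0.688), Znrf3 and Lgr4 (exact p = 0.359) and Lrp6 and Fzd5 (exact p = 0.641) did not differ beyond their spread. Over the length of all annotated exons Rnf43 stood above Lgr5 in 7 of 7 mice, with 46.0 against 33.4 RPKM, and Fzd5 above Lrp6, with 6.59 against 4.62 RPKM.

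Between ages, edgeR's quasi-likelihood test on the summed counts called none of the 8 genes, and 0 of 20957 genes in all (0.0%) at a Benjamini-Hochberg adjusted p under 0.05. Without adjustment 1098 genes (5.24%) had a p under 0.05, and Rnf43 was the single member among them. DESeq2 called 177 genes (0.845%) and limma voom 2 (0.00954%), and neither called a member. With changes simulated at these depths, edgeR called 56.5% of genes changed by 2 on the log2 scale. Of those changed by 1 it called 4%. Smaller changes, such as those of the 8 genes, were not simulated. These rates are over all changed genes, and a rate at the levels of the 8 genes was not computed. The simulation therefore cannot tell how often changes like theirs would be called.

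The R-spondin receptors came first in the comparison by age. Lgr5 was at 335, 443 and 454 counts-per-million (CPM) in the young mice 1 to 3 and at 363, 310, 172 and 324 CPM in the aged mice 1 to 4. The aged mouse 3 was the lowest by far, and aged mouse 1 reached into the young range. The log2 change by edgeR was -0.44 ± 0.24 (SE; p = 0.105, adjusted over all genes 1.00), and without aged mouse 3 it was -0.25. Lgr4 was at 130, 111 and 113 CPM in young and at 108, 110, 182 and 76.7 CPM in aged mice, where aged mouse 3 was the highest and aged mouse 4 the lowest of all. Its log2 change by edgeR was 0.07 ± 0.26 (SE; p = 0.807).

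Rnf43 was at 314, 336 and 434 CPM in young and at 306, 258, 205 and 258 CPM in aged mice. It was the one member whose summed level was lower in every aged than in every young mouse, although the nearest values, 306 and 314, were close. The mean of the aged mice was 257 ± 41.6 CPM and that of the young mice 361 ± 63.9 CPM (exact permutation test, p = 0.0571), and 4.09% of all genes were lower in every aged mouse on this scale. The log2 change by edgeR was -0.44 ± 0.18 (SE; p = 0.0385, adjusted p = 0.909). With 1 mouse left out it ranged from -0.53 to -0.28, the latter without young mouse 3 (p = 0.187), and its p was no longer under 0.05 without aged mouse 2, 3 or 4 either (p between 0.0596 and 0.0886). Znrf3, the paralogue of Rnf43, was at 302, 116 and 154 CPM in young and at 121, 124, 315 and 114 CPM in aged mice. A single mouse of either age, young mouse 1 and aged mouse 3, stood at over 300 CPM and the other 5 between 114 and 154, and the log2 change was -0.13 ± 0.44 (SE; edgeR p = 0.768).

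Of the Wnt receptors, Fzd5 was at 41.8, 54.1 and 38.5 CPM in young and at 39.9, 61.7, 35.3 and 47.8 CPM in aged mice, so that the ages overlapped widely (log2 change by edgeR 0.10 ± 0.21 SE, p = 0.645). Fzd7 was at 18.1, 23.4 and 23.3 CPM in young and at 12.7, 20.5, 11.7 and 19.6 CPM in aged mice. The aged mice 1 and 3 were below every young mouse and the other two were within the young range, with a log2 change of -0.37 ± 0.25 (SE; edgeR p = 0.170). The co-receptor Lrp5 was at 74.9, 67.7 and 94.3 CPM in young and at 59.4, 59.5, 70.7 and 97.5 CPM in aged mice (log2 change -0.08 ± 0.23 SE, edgeR p = 0.729). Lrp6 was at 61.9, 65.5 and 70.4 CPM in young and at 62.2, 75.9, 46.5 and 59.7 CPM in aged mice (log2 change -0.06 ± 0.18 SE, edgeR p = 0.747). For both co-receptors the young mice lay inside the range of the aged ones.

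**Figure D1:**
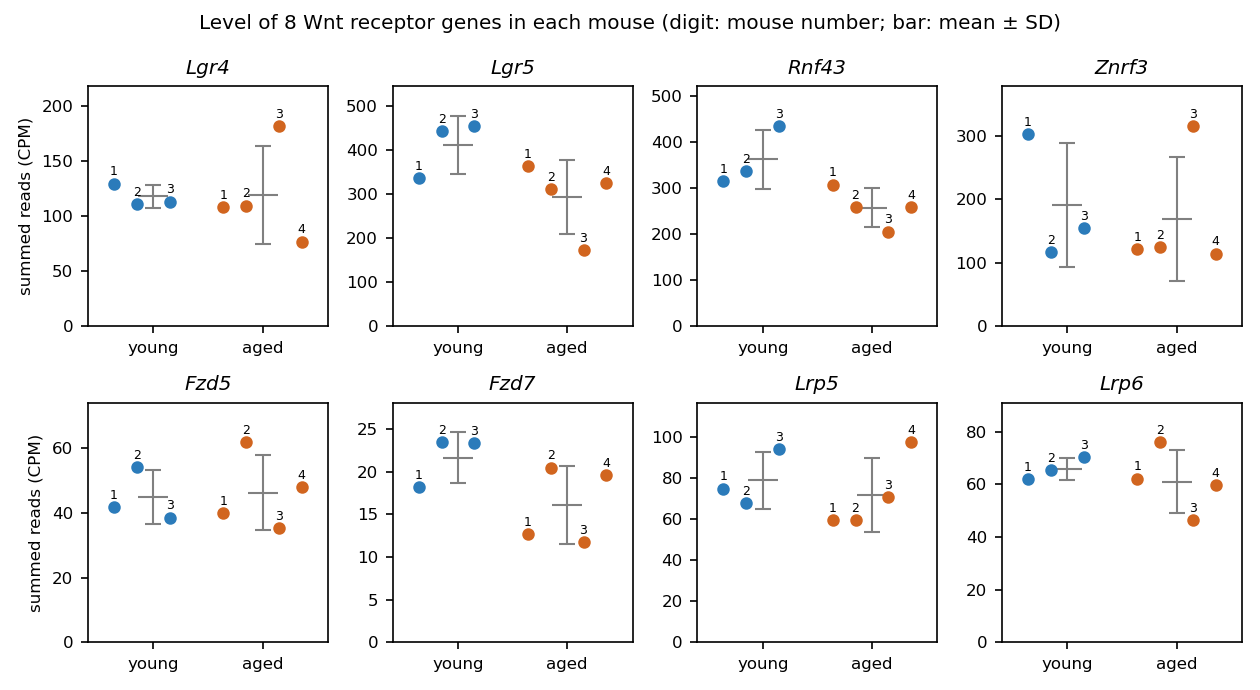
Level in CPM (vertical axis, from 0) of each of the 8 genes in the summed cells of each mouse, with young mice in blue and aged mice in orange, the digit giving the mouse and the grey bar the mean ± SD of 3 young or 4 aged mice. Rnf43 is the one gene without overlap between ages, with 306 CPM in the highest aged and 314 CPM in the lowest young mouse, and Znrf3 stands above 300 CPM in young mouse 1 and aged mouse 3.

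The sets of cells that share a code in their names allowed the ages to be compared within a set. Lgr5 was lower in the aged than in the young mouse in 3 of 3 sets, by log2 ratios of -0.31, -0.49 and -0.96, and Rnf43 likewise by -0.10, -0.41 and -0.62. Fzd7 was lower in 3 of 3 sets as well, by -0.62, -0.38 and -0.63, while Lgr4 (-0.06, 0.00 and 0.49) and Znrf3 (-0.20, 0.35 and 0.06) had no common direction. With the set as a block in edgeR, the log2 change was -0.53 ± 0.15 (SE; p = 0.0128, adjusted p = 0.548) for Lgr5 and -0.31 ± 0.13 (SE; p = 0.0504, adjusted p = 0.652) for Rnf43. Fzd7 differed by -0.48 ± 0.17 (SE; p = 0.0284, adjusted p = 0.617). Young mouse 2 was the young mouse of 2 of the 3 sets, so that these contrasts rest on 2 young mice. With the set as a block its 2 parts enter apart, so that the p of that fit are not over mice alone. In that fit 1525 of 20002 genes had an unadjusted p under 0.05. The share of all genes lower in 3 of 3 sets was not computed. In its 2 sets young mouse 2 had 451 and 436 CPM of Lgr5, 328 and 342 of Rnf43, and 139 and 97.5 of Znrf3. The high Znrf3 values of young mouse 1 and aged mouse 3 came from 1 set, to which both mice belong, and the part of the set in these values was not tested.

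The proportions within the pairs of related genes were computed from RPKM in each mouse. Fzd5 made up 60.2%, 60.3% and 52.0% of Fzd5 plus Fzd7 in young and 67.3%, 66.4%, 66.4% and 61.6% in aged mice. The share was higher in every aged mouse, at 65.4% ± 2.59 against 57.5% ± 4.76 (exact permutation test, p = 0.0571). After Benjamini-Hochberg adjustment over the ratios compared here this exact p was 0.286. The nearest mice, at 60.3% and 61.6%, differed by less than the SD of either group. Such shares were not computed for other pairs of genes, so that no background stands beside this one. The part of the overlap with Gm38058 in the reads of Fzd5 was not tested. Lgr4 made up 26.5%, 18.9% and 18.8% of Lgr4 plus Lgr5 in young and 21.7%, 24.8%, 49.6% and 18.1% in aged mice (exact p = 0.629), and aged mouse 3 had the highest share. This share depends on the gene length used, and with the length of all annotated exons it was 64.9% in aged mouse 3 and 29.2% to 40.3% in the other 6 mice. Znrf3 made up 39.7%, 19.2% and 19.5% of both ligases in young and 21.3%, 24.7%, 51.3% and 23.2% in aged mice (exact p = 0.657), with the same mouse on top. Lrp5 made up between 58.7% and 74.8% of Lrp5 plus Lrp6 over all mice (exact p = 0.886). The log2 ratio of both ligases over both Lgr receptors was 0.32, -0.27 and 0.08 in young and -0.12, -0.14, 0.43 and -0.11 in aged mice (exact p = 0.857).

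In single cells, a few cells held much of the reads of Lgr4 and Znrf3. The 5% of cells with most reads of a gene held between 17.0% and 48.0% of the reads of Znrf3 in a mouse and between 23.3% and 40.0% of those of Lgr4, against 14.1% to 19.9% for Lgr5 and 11.4% to 15.0% for Rnf43. Znrf3 exceeded 1000 CPM in 17 of 1836 cells, 5 of them in young mouse 1 and 4 in aged mouse 3, and the highest cell had 9093 CPM. Lgr4 exceeded 1000 CPM in 12 cells and both genes did in 7. These cells had few detected genes, with a median of 4869 for the 17 Znrf3-high cells, 2989.5 for the 12 Lgr4-high cells and 2898 for the 7 shared ones, next to 9398.5 over all kept cells.

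The number of detected genes was therefore set beside each member, a comparison chosen after the data were seen. Between the 217 cells with fewer than 7000 detected genes and the other 1619, Znrf3 was at 453 against 127 CPM and Lgr4 at 257 against 99.0 CPM, higher in the cells with fewer genes in 7 of 7 mice for both. Lgr5 went the other way, with 234 against 360 CPM, as did Fzd5 (26.2 against 48.0) and Fzd7 (7.47 against 19.8), lower in 7 of 7 mice each. Rnf43 (314 against 293 CPM), Lrp5 (78.0 against 74.4) and Lrp6 (51.5 against 63.8) had no common direction over the mice. The share of all genes with a common direction in this split was not computed. Cells below a cut on detected genes have reads of fewer genes by that choice, and its part in the lower values was not tested. In cells with at least 7000 detected genes alone, the log2 change with age by edgeR was -0.06 for Znrf3, -0.05 for Lgr4, -0.41 for Lgr5 and -0.43 for Rnf43 (p = 0.0590, adjusted p = 0.993).

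The level of the median cell, which a few high cells do not move, gave a picture that differed from the summed reads. This measure was also added after the data were seen. Rnf43 in the median cell was at 301, 300.1 and 386 CPM in young and at 244, 201, 164 and 217 CPM in aged mice, with a clear gap between the ages (exact permutation test, p = 0.0286, the smallest possible). Lgr5 was at 369, 363 and 407 CPM in young and at 326, 217, 176 and 216 CPM in aged mice, again without overlap (exact p = 0.0571). Znrf3, so uneven in summed reads, was at 106, 85.5 and 99.0 CPM in young and at 72.4, 76.2, 74.8 and 78.7 CPM in aged mice (exact p = 0.0286). The median cell of young mouse 1 and of aged mouse 3 did not stand apart here. For Lgr4 the values were 68.6, 85.2 and 74.8 CPM in young and 68.5, 72.2, 65.7 and 54.8 CPM in aged mice, and the ages overlapped (exact p = 0.114). Fzd5, Fzd7, Lrp5 and Lrp6 overlapped too, with exact p between 0.143 and 0.943.

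Thus 3 of 8 members were lower in the median cell of every aged mouse, a pattern seen in 1.78% of all genes. Most genes had a lower median cell than the members, and of the 6989 genes with a mean level of at least 10 CPM there, as all 8 members had, 4.91% showed it. After adjustment over all 20957 genes the exact p was 1.00 for each, and the 3 were not tested as a set. The mean over cells of log2(CPM + 1) in cells thinned to 100000 reads weights cells equally too. On that scale Rnf43 differed by -0.68 and Lgr4 by -0.35 between aged and young mice without overlap (exact p = 0.0571 for both), a pattern seen in 3.45% of all genes, and Lgr5 by -0.82 and Znrf3 by -0.44 with overlap (exact p = 0.0857 for both). The adjusted p over all genes was 0.855 for Rnf43 and Lgr4. A fit of these means over all genes in limma gave adjusted p = 0.337 for Rnf43, 0.474 for Lgr5 and 0.681 for Znrf3. Beside these differences stood more cells led by other markers in aged mice, 20.9% against 9.20%. In ISC-marker-led cells alone the log2 change of summed reads by edgeR was -0.40 ± 0.18 (SE) for Rnf43 (p = 0.0523) and -0.40 ± 0.25 (SE) for Lgr5 (p = 0.145). These values are of summed reads, and the part of the cell composition in the differences of the median cell and of equally weighted cells was not tested.

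**Figure D2:**
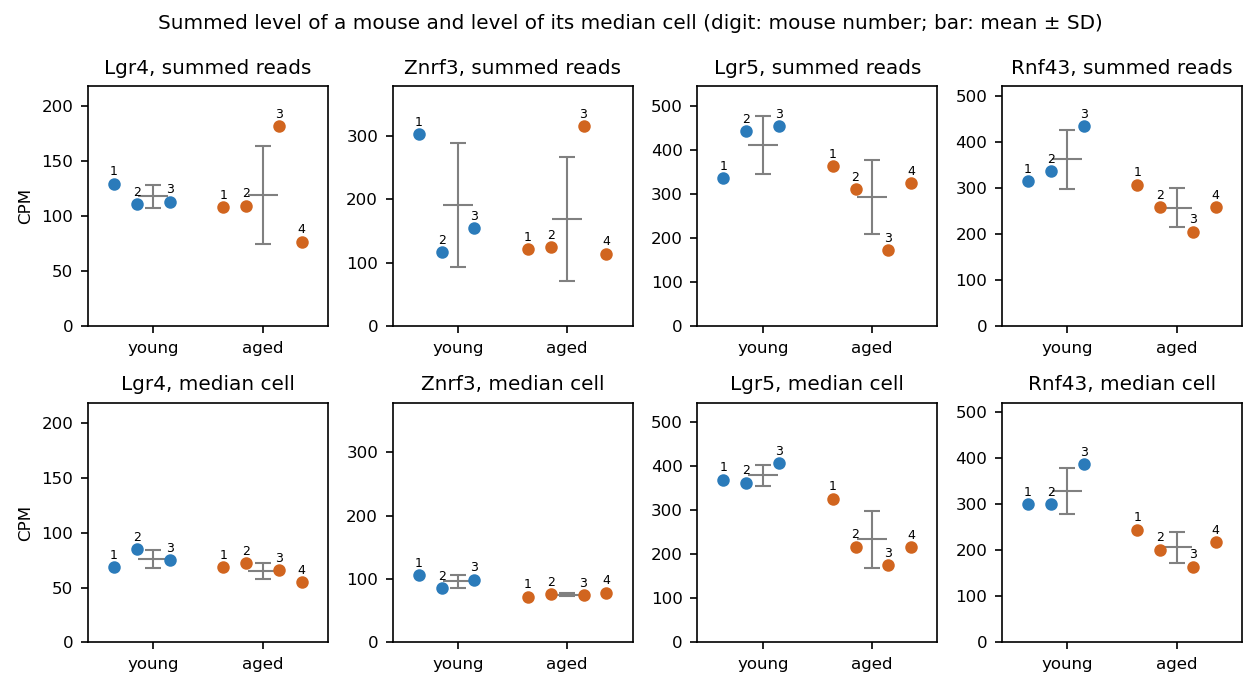
Level in CPM (vertical axis, from 0) of Lgr4, Znrf3, Lgr5 and Rnf43 in the summed cells (upper row) and in the median cell (lower row) of each mouse, young in blue and aged in orange, with the digit giving the mouse and the grey bar the mean ± SD of 3 young or 4 aged mice. Znrf3 spans 114 to 315 CPM in summed reads but 72.4 to 106 CPM in the median cell, and the median cell of Rnf43 is at 300.1 CPM or more in young and at 244 CPM or less in aged mice.

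Most sorted cells held transcripts of most of the 8 genes. At 100000 reads per cell, which 1732 cells reached and 104 did not, 748 cells had a read of all 8 genes, the median cell of 7, and 98.8% of cells of at least 4. The mean number was 6.97 ± 0.248 in aged mice and 7.12 ± 0.179 in young ones (exact permutation test, p = 0.429). Rnf43 was found in 98.4% of aged and 99.6% of young cells, Lgr5 in 95.8% and 97.9%, Lgr4 in 95.7% and 97.5%, and Znrf3 in 92.7% and 95.8%, as means over mice. The co-receptors followed, with Lrp6 in 87.7% and 89.8% and Lrp5 in 85.6% and 87.2%, then Fzd5 in 81.9% and 79.8% and Fzd7 in 59.7% and 64.4%. At this depth no member had a share without overlap between ages (exact p between 0.114 and 0.771), where 2.63% of all genes were lower and 3.87% higher in every aged mouse. Without thinning Rnf43 was in 97.6% of aged and 99.1% of young cells, without overlap (exact p = 0.0571), and Fzd7 in 70.5% and 73.9%. At 50000 reads the share for Znrf3 differed by -4.46 points (exact p = 0.0286). For all genes such shares were computed at 100000 reads only, so that these 2 values have no background beside them. Although the sort required Lgr5-driven GFP, 57 of 1836 cells (3.10%) had no read of Lgr5, among them 27 of 1558 ISC-marker-led cells (1.73%) and 30 of 278 cells led by another list (10.8%). Cells without such a read were shallower, with a median of 103974 against 309674 reads.

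The spread from cell to cell was given by the coefficient of variation (CV) of thinned counts. For Lgr5 it was 0.905 ± 0.113 in aged mice and 0.736 ± 0.032 in young ones, higher in every aged mouse (exact permutation test, p = 0.0571), as in 1.55% of all genes. After adjustment over all genes no member had a p under 0.05 for its CV. The cells include those led by other lists, 20.9% of kept cells in aged and 9.20% in young mice, and the mean level of Lgr5 was lower in aged mice. The part of either in the CV of Lgr5 was not tested. Rnf43 had the lowest CV of the 8 genes in either age, 0.677 ± 0.083 in aged and 0.578 ± 0.088 in young mice (exact p = 0.171). The CV of Znrf3 (1.69 ± 0.811 and 1.29 ± 0.531) and of Lgr4 (1.68 ± 1.02 and 0.974 ± 0.208) was as uneven between mice as their summed reads. The Frizzled and co-receptor genes had means between 0.887 and 1.31 and overlapped between ages (exact p between 0.400 and 0.971).

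Across the cells of a mouse, Lgr5 and Rnf43 went together more than any other pair of the 8. Pearson's r of log2(CPM + 1) in thinned cells was 0.488 as the mean of 7 mice, between 0.427 and 0.585, and 0.433 in ISC-marker-led cells. Of 7383 genes with a mean of at least 20 CPM, 8 were more like Lgr5 than Rnf43 was, and 5 were more like Rnf43 than Lgr5 was. Rnf43 and Znrf3 followed at 0.232, Lgr5 and Lrp6 at 0.195, Fzd5 and Lrp6 at 0.192 and Lgr5 and Fzd7 at 0.190. Lgr4 and Znrf3 had a mean r of 0.163 and a wide range, from -0.08 to 0.423. The paralogues Lgr4 and Lgr5 did not go together: their r was -0.07 in all kept cells, where it was positive in 3 of 7 mice. In ISC-marker-led cells it was -0.14 and negative in 7 of 7 mice. The pairs Fzd5 with Fzd7 and Lrp5 with Lrp6 had a mean r of 0.146 and 0.109 in all kept cells. Cells of a mouse share their library preparation and their detection of genes, and these coefficients are a description without a test.

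**Figure D3:**
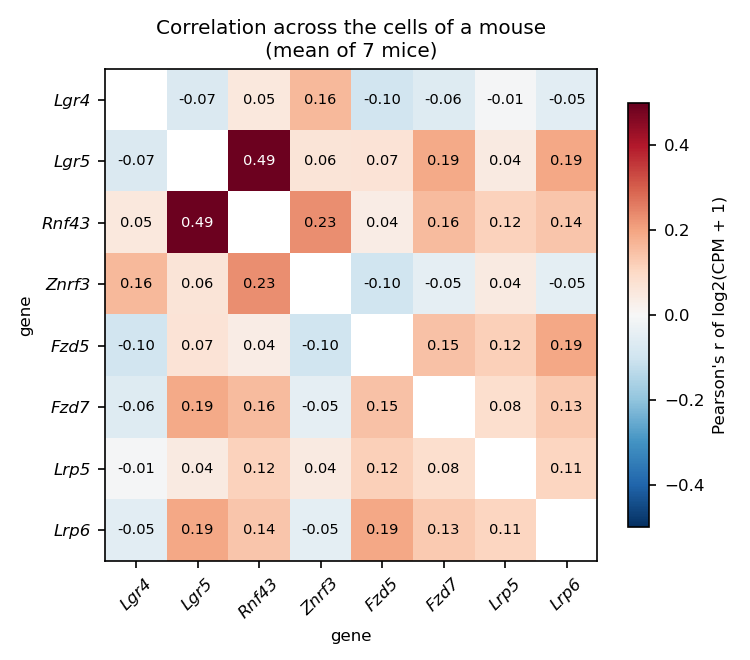
Pearson's r of log2(CPM + 1) between each pair of the 8 genes (both axes) across thinned cells of a mouse, as the mean of 7 mice, with red for positive and blue for negative values. Lgr5 with Rnf43 stands out at 0.49, and Lgr4 is at or below 0.05 with each gene but Znrf3.

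The genes most like each member were named by the same measure, 3 per member. For Lgr5 they were Ivns1abp (0.597), Rgmb (0.571) and the stem cell marker Olfm4 (0.553), and for Rnf43 Ivns1abp (0.571), Olfm4 (0.541) and the stem cell marker Smoc2 (0.540). Rgmb, Olfm4 and Smoc2 are among the ISC markers used here, as is Cdk6. Znrf3 was most like the cyclin-dependent kinase gene Cdk6 (0.375), the respiratory chain gene Cox4i1 (0.375) and Ppp1r1b (0.352), and Lgr4 most like the ribosomal protein gene Rps25 (0.302), the superoxide dismutase gene Sod1 (0.295) and Cox4i1 (0.255). For Fzd5 they were Gm45912 (0.386), Sp1 (0.35) and Hnf4a (0.344), the last a transcription factor of the intestinal epithelium, and for Lrp6 Hnf4a (0.327), Eif4a2 (0.326) and Gdi2 (0.315). Fzd7 was most like Npm1 (0.345), Ptma (0.329) and Rps2 (0.315), genes of growing cells, and Lrp5 most like Dhx9 (0.261), the DNA polymerase gene Pold1 (0.253) and Sdha (0.249). In ISC-marker-led cells 17 of these 24 places were held by the same gene for the same member.

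Cells led by markers of other cell types were compared with ISC-marker-led cells within each mouse, by the mean of log2(CPM + 1). In the 144 Paneth-marker-led cells of 7 mice, 7 of the 8 members were lower in every mouse (exact sign-flip permutation test, p = 0.0156, adjusted over all genes 0.0397). So were 37.3% of all genes, and the median difference of all genes was -0.29. Rnf43 differed by -1.80 ± 0.39 (SD, n = 7) and Lgr5 by -1.65 ± 0.59, Fzd7 by -1.26 ± 0.53 and Znrf3 by -1.03 ± 0.70, and Lrp5, Fzd5 and Lrp6 by -0.95 ± 0.43, -0.89 ± 0.41 and -0.65 ± 0.60. Lgr4 was the exception, at -0.28 ± 0.91 and lower in 5 of 7 mice (exact p = 0.391). In CPM, Lgr5 fell from 367 ± 98.4 in ISC-marker-led to 149 ± 45.8 in Paneth-marker-led cells and Rnf43 from 323 ± 70.3 to 147 ± 50.1, while Lgr4 was at 123 ± 37.2 and 111 ± 48.8. Znrf3 was at 190 ± 103 and 136 ± 73.0 CPM and lower in only 5 of 7 mice on this scale. The median cell of a mouse had 211653 to 379662 reads in the ISC-marker-led and 173934 to 403216 in the Paneth-marker-led class, and with counts thinned to 100000 reads Lrp6 was no longer past the threshold (-0.51, exact p = 0.156). Of the 144 cells 13 had a lead of less than 0.5 log2 units over the next list.

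The enterocyte-marker-led cells, 73 in the 5 mice with at least 5 of them, had lower means of log2(CPM + 1) for Lgr5 and both ligases in each mouse, but not for Fzd5 or Lrp6. On that scale Lgr5 differed by -2.55 ± 1.15 (SD, n = 5), Znrf3 by -2.10 ± 0.67, Rnf43 by -2.03 ± 0.54 and Fzd7 by -1.31 ± 0.80, lower in 5 of 5 mice each, as in 18.0% of all genes. The exact p of 0.0625 is the smallest that 5 mice allow. In summed CPM the ligases and Fzd7 were lower in 5 of 5 mice too, but Lgr5 in 4 of 5, with 199 CPM in the enterocyte-marker-led and 178 in the ISC-marker-led cells of aged mouse 3 and 351 and 355 in young mouse 1. Fzd5 was at 0.35 ± 1.05 and higher in 4 of 5 mice (exact p = 0.438) and Lrp6 at 0.05 ± 0.70 (exact p = 1.00), whereas Lrp5 was at -0.78 ± 0.85 and Lgr4 at -0.54 ± 0.87. The pair of Frizzled receptors thus had values on either side of 0, and in these 5 mice Fzd5 had 46.8 ± 17.0 CPM in enterocyte-marker-led and 46.6 ± 11.8 CPM in ISC-marker-led cells, next to 9.28 ± 4.91 and 20.2 ± 4.84 CPM for Fzd7. Enterocyte-marker-led cells were shallower, with 127819 to 229332 reads in the median cell of a mouse. In the 27 goblet-marker-led cells of 4 mice Lgr5 was at 101 ± 22.5 and Lgr4 at 98.2 ± 38.9 CPM. Between aged and young mice, no member had an exact p under 0.05 in the Paneth contrast. The 2 young and 3 aged mice of the enterocyte contrast allow none below 0.1.

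**Figure D4:**
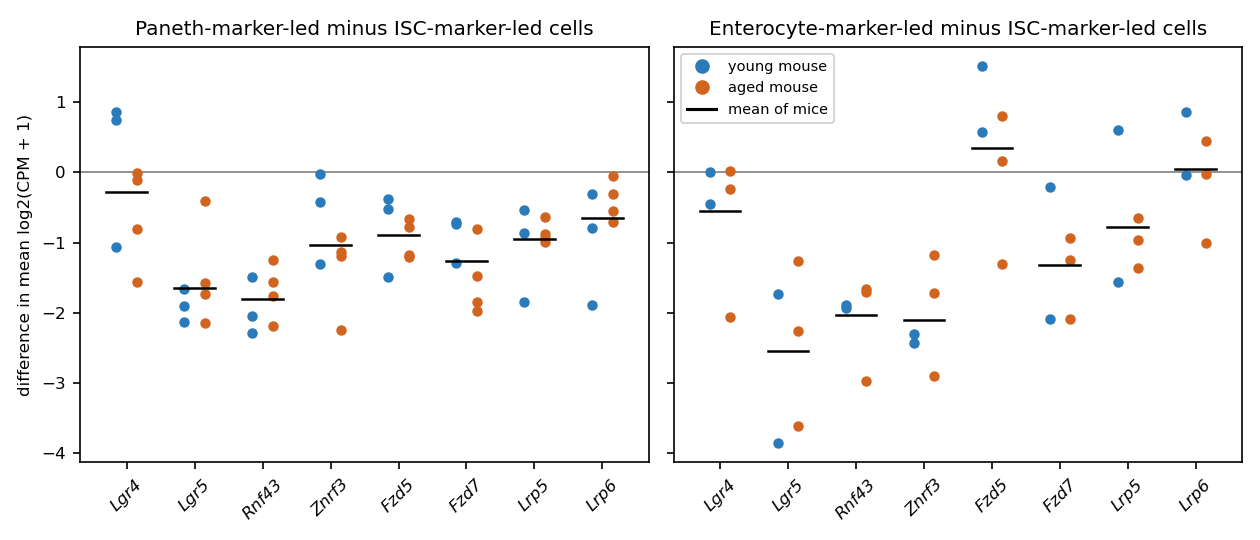
Difference in mean log2(CPM + 1) of each gene between Paneth-marker-led (left) or enterocyte-marker-led (right) and ISC-marker-led cells of a mouse, each point a mouse with at least 5 such cells (young in blue, aged in orange) and the bar the mean over 7 or 5 mice. All points of Lgr5 and Rnf43 lie below 0 in both panels, and those of Fzd5 lie below 0 on the left (mean -0.89) and mostly above it on the right (mean 0.35).

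Between cells with reads of many and of few genes of G2 and mitosis, the members differed in direction. Among 1497 ISC-marker-led cells thinned to 100000 reads, 717 had a read of at least 7 of 13 genes of G2 and mitosis (G2M-high), 546 of at most 3 (G2M-low) and 234 were in between. Between G2M-high and G2M-low cells Lgr5 differed by -0.80 ± 0.25 (SD, n = 7) and Rnf43 by -0.49 ± 0.19 on the log2 scale, lower in 7 of 7 mice each, as were 1.78% of all genes. Fzd5 was higher in G2M-high cells by 1.10 ± 0.19 and Lrp5 by 0.63 ± 0.44, in 7 of 7 mice each, as were 27.5% of all genes. For these 4 genes the exact sign-flip permutation p was 0.0156, the smallest possible, and 0.0533 after adjustment over all genes, at which no gene passed 0.05. Fzd7 was at 0.66 ± 0.67 and higher in 6 of 7 mice (exact p = 0.0625), and Lgr4 (-0.17), Znrf3 (-0.16) and Lrp6 (0.13) had exact p of 0.141, 0.5 and 0.312. The median difference of all genes was 0.10.

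On the scale of CPM, Lgr5 was at 302 in G2M-high and 533 in G2M-low cells, Rnf43 at 264 and 399.5, and Fzd5 at 54.2 and 41.3. Lrp5 went from 69.1 in G2M-high to 77.4 CPM in G2M-low cells, and Lrp6 from 61.2 to 74.7 CPM, both opposite to their difference on the log2 scale, so that their direction depends on the scale. At the same number of reads G2M-high cells had more detected genes, 8517 against 7260.5 in the median cell, and the part of this in the higher values of Fzd5 and Lrp5 was not tested.

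**Figure D5:**
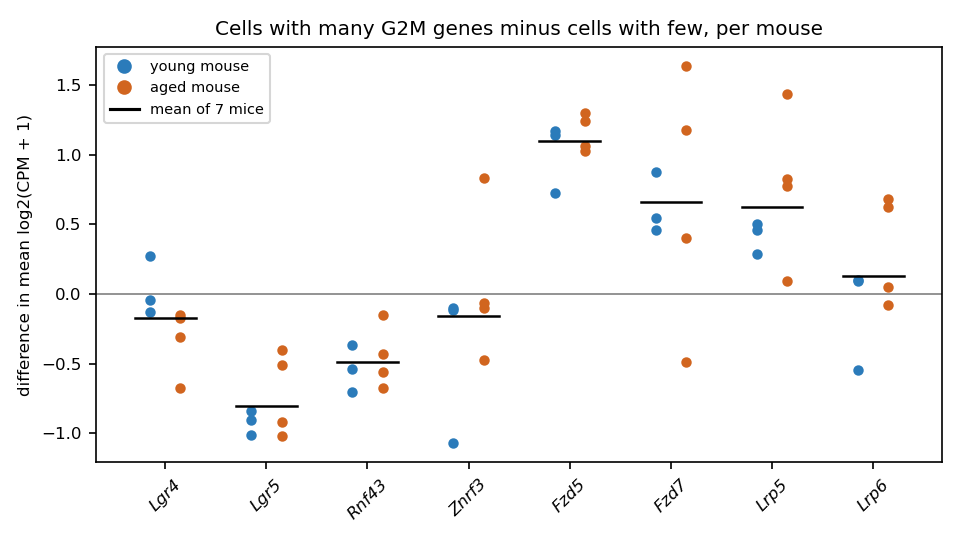
Difference in mean log2(CPM + 1) of each gene between G2M-high and G2M-low ISC-marker-led cells of a mouse, each point a mouse (3 young in blue, 4 aged in orange) and the bar the mean of 7 mice. Lgr5 and Rnf43 lie below 0 and Fzd5 and Lrp5 above 0 in every mouse, with means of -0.80, -0.49, 1.10 and 0.63.

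The share of G2M-high cells was 50.4%, 51.5% and 28.4% in young and 35.5%, 59.3%, 65.5% and 59.4% in aged mice (exact permutation test, p = 0.343), so that the ages were also compared within either group. In G2M-low cells Rnf43 differed by -0.58 (exact p = 0.0286) and Lgr5 by -0.84 (exact p = 0.0571) between aged and young mice, without overlap, as in 3.72% of all genes. In G2M-high cells Rnf43 differed by -0.50 and Lgr4 by -0.40 (exact p = 0.0286 for both) and Lgr5 by -0.63 (exact p = 0.0857), without overlap, as in 2.97% of all genes. Rnf43 and Lgr5 were thus lower in aged mice in both groups of cells, and the other members overlapped between ages in both, except Lgr4 in G2M-high cells. After adjustment over all genes no value passed, with 0.891 for Rnf43 and Lgr4 in G2M-high and 1.00 for Rnf43 in G2M-low cells. The difference between G2M-high and G2M-low cells was itself compared between ages, and no member had an exact p under 0.05. The lowest was that of Lgr4, with -0.33 in aged and 0.03 in young mice (exact p = 0.0571).

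The other genes of the pathway were taken from 10 lists by role with 85 genes, of which 57 were tested. None was called by edgeR, DESeq2 or limma voom. Their median log2 change was -0.01, beside 0.01 over all genes, with 28 above and 29 below 0. Of the 8 other Frizzled genes 6 were below 0, with a median of -0.47, beside 10123 of 20957 genes (48.3%) below 0, and Fzd6 had an unadjusted p under 0.05 (log2 change -0.58 ± 0.25 SE, edgeR p = 0.0441, adjusted p = 0.936), with 10.9, 8.65 and 11.8 CPM in young and 6.16, 7.23, 5.56 and 8.13 CPM in aged mice. Tcf7l1, a repressor of Wnt targets, was the only other listed gene with such a p (1.51 ± 0.64 SE, edgeR p = 0.0428, adjusted p = 0.928), at 0.76 CPM or less in each mouse. These are 3.51% of the 57 genes, beside the 5.24% of all genes. Of the R-spondins, the ligands of Lgr4 and Lgr5, 0 of 4 passed the filter on low counts, and neither did Lgr6.

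The highest genes of each role put the members in proportion. The destruction complex genes Csnk1a1 and Axin2 were at 81.5 ± 5.62 and 54.2 ± 11.9 RPKM (SD, n = 7), and Ctnnb1, which encodes beta-catenin, and Tcf7l2, its main partner on DNA in the gut, at 51.8 ± 9.50 and 52.9 ± 26.0 RPKM. Among the extracellular inhibitors the secreted Sfrp5 led with 35.7 ± 15.7 RPKM, and Kremen1, a membrane receptor of Dkk proteins, followed with 1.68 ± 0.172. Wls, needed to secrete Wnts, was at 32.2 ± 7.05 and Porcn, which acylates them, at 2.33 ± 0.456, while the ligand genes Wnt3 and Wnt5b were at 2.82 ± 0.867 and 2.47 ± 1.55 RPKM. The Dishevelled list was led by Csnk1d (26.5 ± 2.42) and Dvl2 (18.8 ± 3.76), and the other Wnt co-receptors Ror2 (3.02 ± 0.822) and Ryk (2.97 ± 0.785) stood below Lrp5 and Lrp6. The next Frizzled genes, Fzd2 (2.37 ± 0.719) and Fzd6 (1.93 ± 0.540), were below Fzd5 and Fzd7. None of these named genes other than Fzd6 had an edgeR p under 0.05 between ages.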

How the data were processed

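Single cells from 3 young and 4 aged mice were sequenced by a Smart-seq2 type method. The authors aligned reads to GRCm38 with HISAT2 and deposited a table of raw counts that were not normalized. HTSeq is named in the submitters' processing notes. Versions, annotation and strand setting: not given in the sources used here. Of 55471 identifiers 55230 were matched to GENCODE M21. All columns were assigned to mice by name and 0 were left over. The 1836 cells above a minimum of 1000 detected genes were used (with a median of 305492 reads and a lowest total of 1695). No doublet caller was run. The 8 genes and all lists were chosen with earlier results of these data known.

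Counts were summed per mouse and tested with edgeR 4.0.16 in R 4.3.3 (quasi-likelihood, TMM, filterByExpr, Benjamini-Hochberg over all genes tested, threshold 0.05), with DESeq2 1.42.0 and limma 3.58.1 as alternatives. The fit was tested on simulated data: of 200 genes changed by 2 on the log2 scale, 56.5% were called with 3 unchanged ones among 20438 genes, and of those changed by 1, 4% with 1 unchanged among 20539. Other values were compared per mouse with exact two-sided permutation tests, over 35 divisions of the mice between ages or by sign-flips within mice. For shares, CV, correlations and G2M groups each cell was thinned to 100000 reads, and log2 values of cells used a pseudocount of 1 CPM. RPKM used the longest coding transcript. A cell is led by the marker list with the highest mean in it. Genes named besides the members are the pathway genes with a call or an edgeR p under 0.05, the 2 highest per list by RPKM and the 3 most correlated per member. The median cell, the equal weighting of cells, the 7000-gene minimum and the length of all exons were added after the data were seen. Python 3.11.15, numpy 2.4.6, pandas 2.3.3 and matplotlib 3.10.9 were used.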

Additional observations from a re-analysis of the deposited data

Results flagged for a closer look

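In 37 sets of values, the gap between the highest or lowest mouse and its nearest neighbour was compared with the range. The sets were of the 4 aged mice or, for the difference between G2M-high and G2M-low cells, of all 7 mice. In 4 sets, all of aged mice, a mouse was beyond the 95% limit, where chance gives about 1 in 20. Sets that share a gene are not independent of each other. Znrf3 was at 315 CPM in aged mouse 3, with the other aged mice between 114 and 124. The Znrf3 share of both ligases was 51.3% in the same mouse, and its log2 ratio of ligases over Lgr receptors was 0.43. The Fzd5 share of Fzd5 plus Fzd7 was lowest in aged mouse 4, at 61.6%, which is the aged mouse nearest to the young range.

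The 84 cells left out for having fewer than 1000 detected genes held 361703 reads in all, in which 3 reads correspond to 8.29 CPM. Above that limit were Lgr5 at 52.5 CPM (19 reads), Lgr4 at 44.2 CPM (16 reads), Rnf43 at 22.1 CPM and Znrf3 at 16.6 CPM.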

How the results depend on the processing

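No member was called with age in any alternative fit. Of the log2 changes of the members with age in these fits, 135 kept their direction and side of the threshold and 17 changed sign. Over all results, those of cells, shares and ratios included, there were 723 alternative values, of which 659 kept their direction and side of the threshold. The number of all genes called with age, 0 in the summed counts, was 177 by DESeq2, 2 by limma voom, 22 without the filter on low counts, 13 with thinned cells, 1 with the code set as a block, 2 with at least 7000 detected genes, 55 with cells weighted equally, and 0 to 8 without 1 mouse, with 8 when aged mouse 1 and 1 when aged mouse 4 or young mouse 1 was left out; the cause was not tested. Thinning turned the log2 change of Lgr4 to -0.0078 and of Lrp6 to 0.0025, the code set as a block that of Znrf3 to 0.13 and of Fzd5 to -0.093, at least 7000 genes that of Lgr4 to -0.050 and equal weights to -0.35. Without 1 mouse the change ranged from -0.21 to 0.22 (Lgr4), -0.62 to 0.39 (Znrf3), -0.059 to 0.22 (Fzd5), -0.28 to 0.077 (Lrp5) and -0.17 to 0.056 (Lrp6), and kept its sign for Lgr5 (-0.55 to -0.25), Rnf43 (-0.53 to -0.28) and Fzd7 (-0.49 to -0.24).

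The share of cells with a Fzd5 read differed by -1.56 points at 50000 reads and by -1.73 unthinned, that of Fzd7 by 1.67 at 200000 reads, and 1 member (Znrf3, -4.46) passed 0.05 at 50000 reads. Without 1 mouse the shares ranged from -0.415 to 6.01 (Fzd5), -4.32 to 0.455 (Lrp5) and -3.76 to 0.449 (Lrp6). The CV difference of Lgr4 was -0.0606 unthinned, of Fzd7 -0.119 at 200000 reads and -0.0406 in ISC-marker-led cells, and of Lrp6 -0.0067 there, and without 1 mouse it ranged from -0.0700 to 0.0864 (Fzd7), -0.356 to 0.0308 (Lrp5) and -0.0913 to 0.0848 (Lrp6). The Znrf3 share of the ligases ranged from -3.02 to 10.8 points, the Lrp5 share from -3.09 to 2.27 and the log2 ratio of ligases from -0.18 to 0.11. Enterocyte-marker-led Lrp6 was at -0.0356 with log2(CPM/10 + 1) and at -0.0359 with a margin of 0.5, from -0.15 to 0.32 without 1 mouse, and G2M-high Lrp6 at -0.0395 with log2(CPM/10 + 1). By Spearman correlation 12 of the 24 most similar genes remained.

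With the replicate number as a block, edgeR called 0 genes (721 of 20367 at an unadjusted p under 0.05) and no member. Deviations of mice with the same number correlated at -0.016, 0.107 and -0.110, so that they share only a number. Depth limits Fzd7 most, which had a read in about 60% of thinned cells.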
